A study of Mus musculus with 5 samples.

Results

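The 10 homing and adhesion receptor genes described here were the chemokine receptor gene Cxcr4, the integrin genes Itga4, Itga5, Itga6, Itgal, Itgb1 and Itgb2, the selectin ligand gene Selplg, the hyaluronan receptor gene Cd44 and the immunoglobulin-family gene Vcam1. They were taken by symbol from a table of 24046 genes, all 10 were found, and all 10 were among the 13661 genes that passed the filter on low values. The table held bulk RNA-seq of hematopoietic stem cells (HSCs) from mouse bone marrow. All donors were Syncrip flox/flox, that is, both alleles of the gene of the RNA-binding protein SYNCRIP carried sites that Cre recombinase can cut, and their whole marrow had been transplanted into congenic CD45.1 recipients. WT libraries (WT 1, WT 2 and WT 3) came from Mx1-Cre- marrow and KO libraries (KO 2 and KO 3) from Mx1-Cre+ marrow. Mice of both genotypes were given polyinosinic:polycytidylic acid (pIpC), which induces interferon and so switches on Cre under the Mx1 promoter. The harvest of HSCs followed transplantation by 9 weeks and pIpC by 3 weeks. Cells were sorted as CD45.2+, Lin-, Sca1+, cKit+, CD150+ and CD48-. The Mx1 promoter is active in many cell types and WT mice lacked Cre, so loss of Syncrip and the presence of active Cre cannot be told apart, and both groups had been exposed to interferon. The methods of the study speak of biological replicates in general, but the labels do not tie each library to an animal, so p-values measure the spread between these libraries.

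Homing is the passage of circulating stem cells into the marrow, and retention is their lodging there. A homing cell first rolls on endothelial selectins through fucosylated ligands such as PSGL-1 and CD44, is then activated by the chemokine CXCL12 through CXCR4, and arrests when its integrins bind VCAM-1, ICAM-1 and matrix. Integrins are heterodimers of an α and a β chain, and neither chain reaches the cell surface efficiently without a partner, which is why α and β transcripts are described together here.

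WT libraries had 21748781 to 22779536 reads, whereas KO 2 had 18308876 and KO 3 had 12539599, so KO libraries were less deeply sequenced. Syncrip itself, the targeted gene, stood at 1440 to 1944 normalized reads in WT and at 294 and 343 in KO 2 and KO 3 (limma, log2 fold change -2.43, adjusted p = 0.0352). Transcripts of the sorting gate were present in every library: Kit was the highest of its list at 8007 to 10741, and Slamf1, which encodes CD150, ran from 195 to 522. Itgam, a myeloid gene whose protein is usually among the lineage markers gated out, stood at 7074, 10792 and 11353 in WT 1, WT 2 and WT 3, and at 5158 in KO 2 and 2313 in KO 3. Neutrophil and granulocyte progenitor genes, led by Mpo, took 6.04% to 7.21% of reads in WT, 5.35% in KO 2 and 2.61% in KO 3. KO 2 stood apart through adipocyte transcripts, whose summed value was 24417 there and 88.1 to 276 in the other libraries, and the members' fold changes are therefore also given without it.

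Whether the homing and adhesion receptors differed between WT and KO HSCs was asked first over the whole group. Cd44, Itga4, Itgb1, Itgal and Cxcr4 were lower in both KO libraries than in all 3 WT libraries, Itga5 was higher in both, and the groups overlapped for Itgb2, Vcam1, Itga6 and Selplg. None of the 10 passed an adjusted p of 0.05 in limma, in which 0.00732% of all genes tested passed, or in edgeR's quasi-likelihood test (0.0146% of genes). DESeq2 passed Cd44 and Itga4, both lower, against 9.46% of its genes lower and 9.27% higher. At an unadjusted p under 0.05, limma had 6 members lower, where 14.5% of all genes tested were lower and 13.3% higher, and none higher, and edgeR had 5 lower, where 13.8% of genes were. The 5 members under all WT values compare with 23.2% of all genes tested, and the 1 above all WT values with 23.9%. In bulk libraries, fewer cells of a type and less RNA per cell cannot be told apart.

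The median log2 fold change of the 10 members was -0.66, beside 0.02 over all genes tested, and 8 of the 10 were below 0. Corrected for a trend on transcript length and GC content, described below, the median was -0.27. In that setting 3 members rather than 5 were under all WT values, where 18.6% of all genes were. Of the KO libraries, KO 3 was the more distant: the members' median was -0.34 for KO 2 alone and -0.98 for KO 3 alone, with medians over all genes of 0.01 and 0.02. For WT 1, WT 2 and WT 3, each against the other WT libraries, the members' median was -0.23, 0.14 and 0.16. Without KO 2, limma called 5 members lower (Cd44, Itga4, Vcam1, Itgb2 and Cxcr4) among 12.2% of all genes tested that were called lower, and without KO 3 it called none. In that fit KO 3 was the lone KO library and was assumed to vary like the WT libraries. The members together took 0.172%, 0.197% and 0.188% of reads in WT 1, WT 2 and WT 3, and 0.148% in KO 2 and 0.123% in KO 3.

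**Figure D1:**
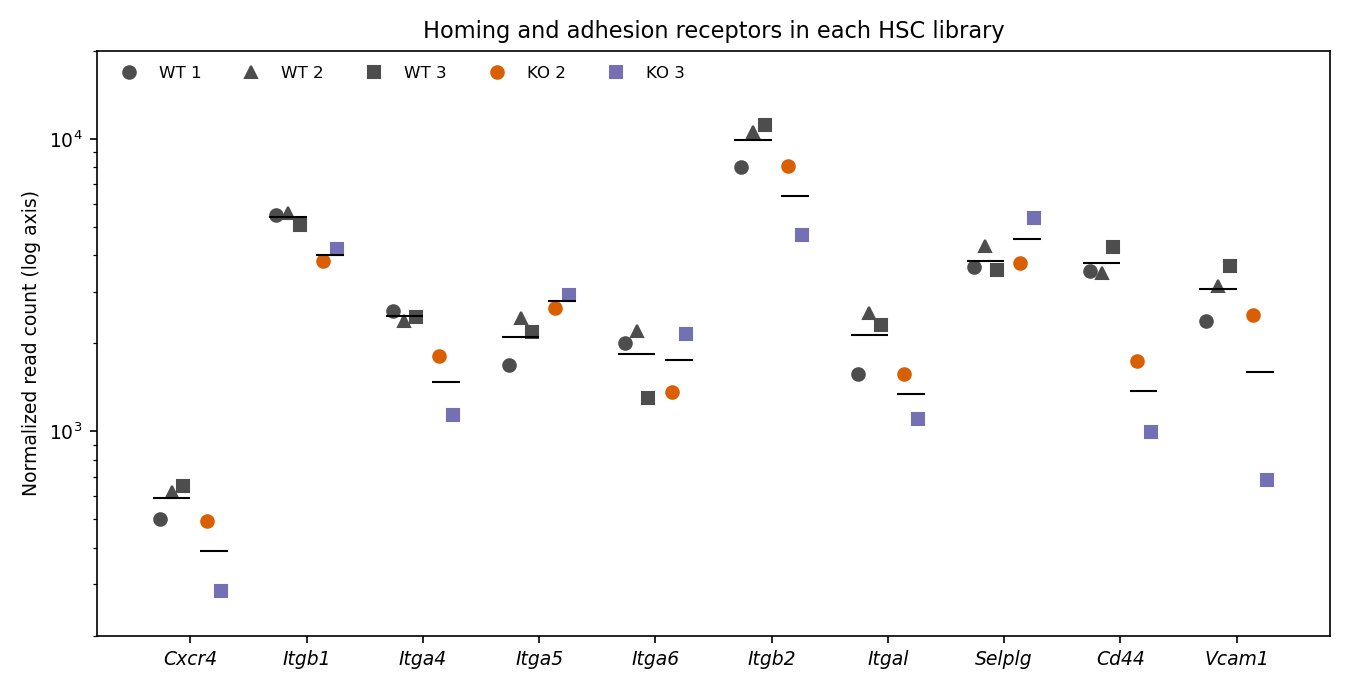
Normalized read counts (log axis) of the 10 receptor genes in each library, with WT libraries in grey, KO 2 in orange, KO 3 in purple and the group mean as a line. Cd44 shows the clearest gap, from 3483 to 4251 in WT to 1742 and 996 in KO, while Itga5 is the gene whose KO values lie above all WT values.

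Levels of different genes were compared per kilobase of the longest annotated transcript. In WT, Itgb2 was highest at 3331 ± 563 normalized reads per kb (SD, n = 3), followed by Selplg at 1656 ± 175 and Itgb1 at 1411 ± 69.2. Vcam1 (750 ± 161) and Cd44 (668 ± 77.0) came next and overlapped each other. Itga5 (477 ± 86.5), Itga6 (426 ± 109), Itgal (409 ± 96.8) and Cxcr4 (327 ± 43.1) followed, with neighbours in this order overlapping, and Itga4 was lowest at 253 ± 9.60, under all Cxcr4 values. In KO the first 3 and the last 2 places were unchanged by mean level, but Itga5 (630 ± 43.2, n = 2) moved from 6th to 4th and Cd44 (244 ± 94.0) from 5th to 8th. With the mean length of the coding transcripts in place of the longest, Selplg came before Itgb2 in KO, Vcam1 kept 4th place, Itga5 was 5th and Cd44 6th.

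Cd44 encodes a receptor for hyaluronan and, when suitably glycosylated, a ligand for E-selectin. Of the 10 genes, Cd44 had the log2 fold change of largest size over all 5 libraries. Without KO 2, that of Vcam1 was larger in size (-2.15 against -1.91). The WT libraries held 3523, 3483 and 4251 normalized reads of it (WT 1 to WT 3), KO 2 held 1742 and KO 3 held 996. Both KO libraries were far below the lowest WT library, and KO 3 was the lower of the pair. KO 2 kept 46.4% and KO 3 kept 26.6% of the WT mean (3752 ± 433). By limma the log2 fold change was -1.50 (SE 0.25, 95% interval -2.08 to -0.93, adjusted p = 0.0815). DESeq2 gave -1.45 with an adjusted p of 4.28e-05, and edgeR an adjusted p of 0.0926. Over the 18 alternatives the fold change stayed between -1.91 and -1.10, with -1.10 without KO 3 (limma adjusted p = 0.231) and -1.91 without KO 2 (limma adjusted p = 0.00773). Cd44 is a protein-coding gene on the minus strand of chromosome 2 (GRCm38, 102811141 to 102901665).

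Promoter windows from 250 bases before to 50 after the RefSeq start of the gene are shown for Cd44 and Itga4, which DESeq2 called lower, and for Itga5, which lay above WT in both KO libraries, so that genes that parted in the KO can be read side by side. They are RefSeq sequences of GRCm38.p6, given 5′ to 3′ on the strand of the gene, and 5 of the 10 members (also Cxcr4 and Itgb1) had one. The RefSeq start of Itga5 is not the GENCODE start given for it below, while those of Cd44 and Itga4 coincide. The windows are chr2:102901616-102901915 on the minus strand for Cd44, chr2:79255176-79255475 on the plus strand for Itga4 and chr15:103366742-103367041 on the minus strand for Itga5. Capitals mark matches on either strand to GGGCGG (the GC box bound by SP1), GAGGAA (a core bound by ETS factors such as PU.1), CCAAT and CACGTG, which do not overlap one another here.
Cd44: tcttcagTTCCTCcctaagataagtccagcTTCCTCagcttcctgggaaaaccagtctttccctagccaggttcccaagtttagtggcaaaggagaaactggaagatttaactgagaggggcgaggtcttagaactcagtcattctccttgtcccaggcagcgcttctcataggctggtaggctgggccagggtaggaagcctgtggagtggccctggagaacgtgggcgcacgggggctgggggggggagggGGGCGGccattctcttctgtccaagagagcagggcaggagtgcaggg
Itga4: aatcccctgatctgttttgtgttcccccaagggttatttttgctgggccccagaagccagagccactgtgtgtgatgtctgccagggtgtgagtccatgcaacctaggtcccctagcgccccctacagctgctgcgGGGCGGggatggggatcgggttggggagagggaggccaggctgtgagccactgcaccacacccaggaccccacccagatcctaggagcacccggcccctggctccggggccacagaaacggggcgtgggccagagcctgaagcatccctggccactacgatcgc
Itga5: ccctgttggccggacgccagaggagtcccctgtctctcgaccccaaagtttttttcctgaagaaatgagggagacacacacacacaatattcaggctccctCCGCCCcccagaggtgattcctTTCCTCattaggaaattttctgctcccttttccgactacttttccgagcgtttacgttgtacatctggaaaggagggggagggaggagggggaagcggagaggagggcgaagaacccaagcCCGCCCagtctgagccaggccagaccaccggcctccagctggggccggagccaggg

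GGGCGG was found at 1 place in each of the Cd44 and Itga4 windows and at 2 places in that of Itga5, and 35.7% of the 32851 promoter windows in the table hold it. GAGGAA was found at 2 places in the Cd44 window, 1 in that of Itga5 and none in that of Itga4, against 28.3% of all windows. CCAAT (37.4% of windows) and CACGTG (7.15%) were found in none of the 3. GC content was 58.0% for Cd44, 64.3% for Itga4 and 58.7% for Itga5, with 6, 10 and 13 CpG dinucleotides, beside a median of 52.7% and 7 over all windows. A match describes letters and not a bound site.

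Cxcr4 encodes the receptor for CXCL12, the chemokine that draws HSCs into the marrow and keeps them there. Normalized read counts were 502, 619 and 650 in WT 1, WT 2 and WT 3, with 493 in KO 2 and 284 in KO 3. KO 3 was well under the WT libraries, but KO 2 was just under WT 1. A log2 fold change of -0.65 (SE 0.30, 95% interval -1.32 to 0.03, limma adjusted p = 0.193) rested on KO 3, since it was -0.25 without KO 3 and -1.04 without KO 2. Corrected for the length and GC trend, Cxcr4 was at -0.35. Cxcr4 lies on the minus strand of chromosome 1 (128588199 to 128592293).

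The β1 integrins bind fibronectin, laminins and VCAM-1. Itgb1, their shared β chain, was counted at 5498, 5567 and 5079 in WT 1, WT 2 and WT 3, and at 3817 in KO 2 and 4210 in KO 3. Both KO values were under all WT values and close to each other, with KO 2 the lower, whereas KO 3 was the lowest library for Cd44, Itga4, Cxcr4, Itgal, Itgb2 and Vcam1. KO stood at 74.6% of the WT mean, a log2 fold change of -0.42 (SE 0.16, limma adjusted p = 0.138), of -0.35 without KO 2 and of -0.07 once corrected for the length and GC trend. Itgb1 lies on the plus strand of chromosome 8 (128685654 to 128733200).

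Itga4 encodes α4, which with β1 forms VLA-4, the HSC receptor for VCAM-1 and fibronectin. Its counts were 2575, 2389 and 2459 in WT 1, WT 2 and WT 3, compared with 1807 in KO 2 and 1138 in KO 3. The WT libraries were close together (2475 ± 93.7, SD, n = 3), and both KO libraries were well under them. For Itga4 limma gave a log2 fold change of -0.79 (SE 0.22, adjusted p = 0.0893), and DESeq2 an adjusted p of 0.0242. Its log2 fold change was -0.45 without KO 3, -1.12 without KO 2 and -0.19 once corrected for the length and GC trend. Itga4 lies on the plus strand of chromosome 2 (79255426 to 79333123) and shares 1124 exon bases with Cerkl on the opposite strand, which had at most 189 normalized reads, and the use of strand in counting was not stated.

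Itga5 encodes α5, the fibronectin receptor chain, and went the other way. WT 1, WT 2 and WT 3 had 1686, 2434 and 2192 normalized reads, and KO 2 and KO 3 had 2645 and 2914. Both KO libraries were above the highest WT library, WT 2, though KO 2 by little. This made a log2 fold change of 0.42 (SE 0.20, 95% interval -0.05 to 0.88, limma adjusted p = 0.219), which was 0.27 without WT 1, 0.49 without KO 2 and -0.13 once corrected for the length and GC trend. Itga5 lies on the minus strand of chromosome 15 (103344286 to 103366763).

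Itga6 encodes α6, a laminin receptor chain. Normalized reads numbered 1998, 2205 and 1304 in WT 1, WT 2 and WT 3, 1364 in KO 2 and 2150 in KO 3. The groups interleaved, with WT 3 and KO 2 low and the other libraries high. Its log2 fold change was -0.06 (SE 0.28, 95% interval -0.72 to 0.59, limma adjusted p = 0.896), and ran from -0.39 without KO 3 to 0.26 without KO 2. The interval leaves room for a change in either direction. Itga6 lies on the plus strand of chromosome 2 (71745616 to 71858416).

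The α chains were next set against β1 in the same library. The sum of α4, α5 and α6 transcripts per kb, divided by that of β1, was 0.770, 0.896 and 0.789 in WT 1, WT 2 and WT 3, and 1.10 in KO 2 and 1.16 in KO 3. Both KO ratios were above all WT ratios (0.818 ± 0.068 in WT, 1.13 ± 0.039 in KO). With the mean length of the coding transcripts in place of the longest, the ratios were smaller, at 0.504 ± 0.043 in WT and 0.694 ± 0.029 in KO, in the same order. The difference was gone once each library was corrected for a trend on transcript length and GC content, with 0.910 to 0.948 in WT, 1.01 in KO 2 and 0.820 in KO 3.

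Of the 3 α chains, the groups were apart for α5 alone, whose ratio to β1 was 0.265, 0.378 and 0.373 in WT 1, WT 2 and WT 3, 0.599 in KO 2 and 0.598 in KO 3. With that trend removed the α5 to β1 ratio overlapped too, at 0.384 to 0.516 in WT, 0.509 in KO 2 and 0.331 in KO 3. The α4 to β1 ratio was 0.168 to 0.189 in WT, 0.185 in KO 2 and 0.106 in KO 3. KO 2 thus lay among the WT libraries. The α6 to β1 ratio overlapped as well, at 0.227 to 0.351 in WT, 0.316 in KO 2 and 0.452 in KO 3. Of the summed α4, α5 and α6 transcripts per kb, α4 made up 22.1% ± 2.98 in WT and 13.0% ± 5.43 in KO, α5 made up 41.3% ± 6.45 and 53.1% ± 1.90, and α6 made up 36.6% ± 6.87 and 33.9% ± 7.33. No test was run on these ratios.

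**Figure D2:**
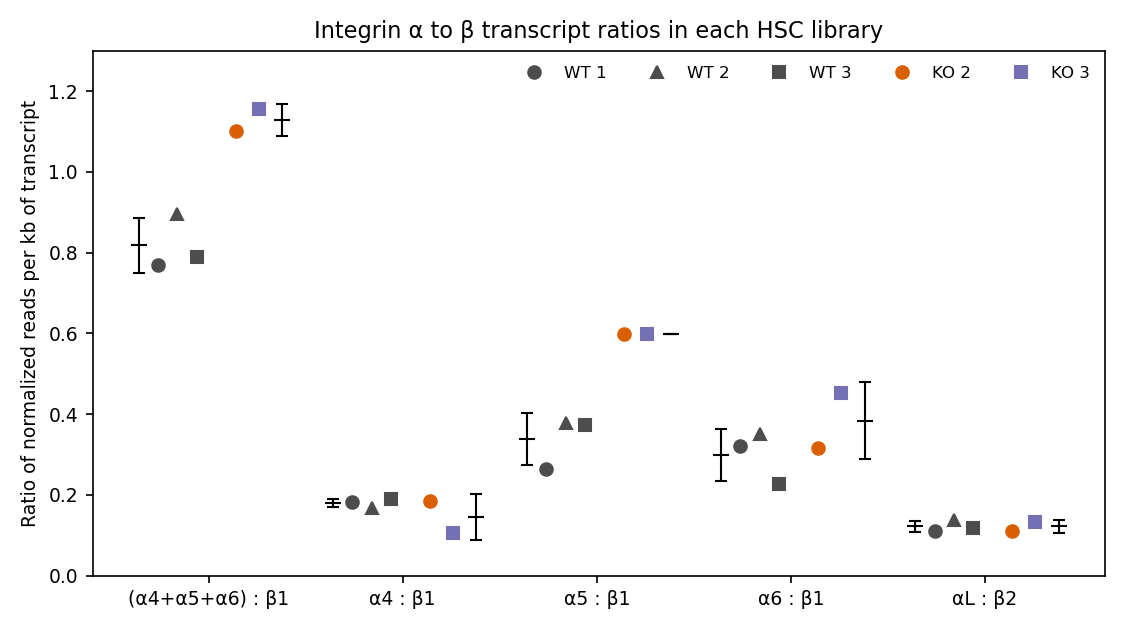
Ratios of integrin α to β transcripts, each in normalized reads per kb of the longest transcript, in WT (grey) and KO (orange, purple) libraries, with the group mean and SD in black. The α5 to β1 ratio is 0.598 to 0.599 in KO and 0.265 to 0.378 in WT, while αL to β2 overlaps. With the length and GC trend removed, α5 to β1 overlaps as well.

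The β2 integrins are confined to leukocytes and bind ICAMs. Itgb2, their β chain, was counted at 7990, 10546 and 11139 in WT 1, WT 2 and WT 3, at 8067 in KO 2 and at 4687 in KO 3. KO 3 was far below the other libraries, and KO 2 was just above WT 1. Itgb2 had a log2 fold change of -0.67 (SE 0.26, limma adjusted p = 0.142), which was -0.28 without KO 3 and -1.06 without KO 2. Itgb2 lies on the plus strand of chromosome 10 (77530252 to 77565708).

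Itgal encodes αL, which with β2 forms LFA-1. The counts were 1570.9, 2541 and 2303 in WT 1, WT 2 and WT 3, at 1570.7 in KO 2 and at 1104 in KO 3. KO 2 was equal to WT 1 to within 1 read, so the place of Itgal among the members under all WT values has no margin. Itgal had a log2 fold change of -0.67 (SE 0.26, limma adjusted p = 0.143), which was -0.92 without KO 2 and -0.42 without KO 3. The αL to β2 ratio per kb was 0.122 ± 0.013 in WT and 0.122 ± 0.016 in KO, and the groups overlapped. Itgal lies on the plus strand of chromosome 7 (127296260 to 127335138).

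Itgam encodes αM, another β2 partner, which forms Mac-1 on myeloid cells, and had the values given above (log2 fold change -1.46, SE 0.34, limma adjusted p = 0.0815, DESeq2 adjusted p = 0.00276). Itgad, which encodes the β2 partner αD and is named here after its values were seen, was scarce and above all WT values in KO, at 9.43 to 14.2 in WT, 72.0 in KO 2 and 28.9 in KO 3 (1.98, SE 0.74, limma adjusted p = 0.135). The share of reads in neutrophil and granulocyte progenitor genes was lower in KO as well, at 5.35% and 2.61% against 6.04% to 7.21%. Of the 11 genes of that list, 5 were under all WT values and none above, beside 23.2% and 23.9% of all genes tested. Macrophage markers, led by Csf1r, summed to 2219 to 2887 in WT, 2513 in KO 2 and 1318 in KO 3. The part of these cell-type transcripts in the β2 integrin values was not tested.

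Selplg encodes PSGL-1, the main ligand of P-selectin. Libraries held 3641, 4296 and 3556 normalized reads in WT 1, WT 2 and WT 3, 3762 in KO 2 and 5340 in KO 3. KO 2 lay among the WT libraries and KO 3 above them. For Selplg limma gave a log2 fold change of 0.23 (SE 0.20, 95% interval -0.23 to 0.69, adjusted p = 0.477), which was 0.48 without KO 2 and -0.02 without KO 3. Selplg lies on the minus strand of chromosome 5 (113818536 to 113832644).

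Vcam1 encodes VCAM-1, the counter-receptor of VLA-4, known from endothelium and stroma and also carried by HSCs and macrophages. The 3 WT libraries held 2376, 3143 and 3682 normalized reads (WT 1 to WT 3), while KO 2 held 2507 and KO 3 held 680. KO 2 lay among the WT libraries, and KO 3 alone was low, at 22.2% of the WT mean. Vcam1 had a log2 fold change of -1.21 (SE 0.47, 95% interval -2.28 to -0.13, limma adjusted p = 0.144), -0.27 without KO 3, -2.15 without KO 2 and -0.51 once corrected for the length and GC trend. Macrophage markers were lowest in KO 3 too, as given above, and stromal markers summed to 356 to 2388 in WT, 919 in KO 2 and 307 in KO 3. Endothelial markers summed to 2856 to 5146 in WT, 6462 in KO 2 and 14930 in KO 3, sums in which Vwf took 7319 in KO 3. Of the 12 endothelial genes, 2 were above all WT values, beside 23.9% of all genes tested, and 10 overlapped. The part of stromal cells, endothelial cells or macrophages in the Vcam1 values was not tested. Vcam1 lies on the minus strand of chromosome 3 (116109949 to 116129688), where 61 exon bases are shared with a gene model on the opposite strand, Gm43109.

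Transcript length and GC content moved with these results. Removing a linear trend on length and GC content from each library brought the median of the members from -0.66 to -0.27, with -0.02 over all genes. Itga4, whose longest transcript has 9767 bases and 41.1% GC, went from -0.79 to -0.19 (95% interval -0.57 to 0.20), and Itgb1 from -0.42 to -0.07. Itga5, the most GC-rich at 57.3%, went from 0.42 to -0.13 (95% interval -0.51 to 0.25), so its direction depends on this setting. Cd44 remained at -1.14 (95% interval -1.62 to -0.65), and Itgal and Itgb2 went lower, to -0.93 and -0.91. Vcam1 went from -1.21 to -0.51 (95% interval -1.44 to 0.42) and Cxcr4 from -0.65 to -0.35 (95% interval -0.95 to 0.24). Cd44, Itgal and Itgb2 had an unadjusted p under 0.05 in that fit, in which 9.06% of genes were lower at that level. None of the 10 passed the adjusted threshold in it, and Syncrip itself went from -2.43 to -1.53 (limma adjusted p = 0.169).

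**Figure D3:**
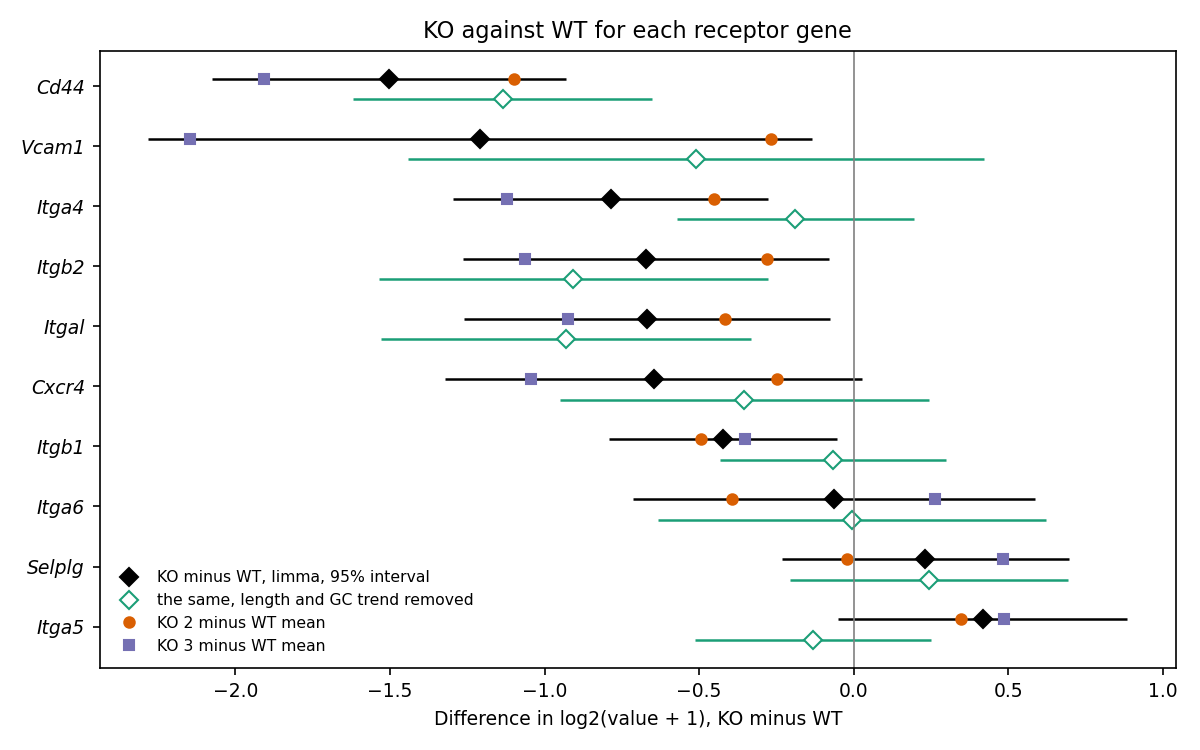
Differences in log2(value + 1) between KO and WT for each receptor gene by limma (black, 95% interval), with KO 2 (orange) and KO 3 (purple) each against the WT mean, and the same fit after removal of the length and GC trend (open, green). Cd44 lies below 0 in both fits, while Itga5 moves from 0.42 to -0.13.

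The genes nearest to each member in profile over the 5 libraries were sought among 10541 genes whose mean value reached 100, by the root mean square difference of centred log2 values. Selplg was closest to Syne3 (0.014), Itgb1 to R3hdm1 (0.020), Itga5 to Gna12 (0.020), Cxcr4 to Slc12a4 (0.024) and Itga4 to Hmox1 (0.028). Itgb2 was closest to Golm1 (0.031), Itgal to Tmco3 (0.052), Itga6 to Usp18 (0.063), Cd44 to Gmfb (0.066) and Vcam1 to Slc31a2 (0.114). Gmfb, for example, was counted at 1946, 1771 and 2037 in WT 1, WT 2 and WT 3, and at 887 in KO 2 and 518 in KO 3. Within the group, Cxcr4 and Itgb2 were the most alike (0.040), followed by Itgal and Itgb2 (0.130), the partners of LFA-1, and Itga6 and Vcam1 were the least alike (1.06). With 5 libraries, many genes share such a profile.

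A further 9 lists of adhesion and guidance genes, 162 of which were tested, were described beside the receptors. None of these genes passed the adjusted threshold in limma or in edgeR, 39 were lower and 16 higher at an unadjusted p under 0.05 in limma (14.5% and 13.3% over all genes tested), and DESeq2 passed 30 lower and 6 higher (9.46% and 9.27% over all genes). Their median log2 fold change was -0.10, with 48 genes under all WT values and 21 above, and the shares over all genes tested, 23.2% and 23.9%, apply to the counts of each list below. List medians are followed by those of KO 2 alone and KO 3 alone. Fold changes of these genes are from all 5 libraries. For genes and list medians, the value with the length and GC trend removed (here the trend-removed value) is added where the direction turned or the size moved by over 1.5 times. Of 15 other integrin subunits tested, 2 were under all WT values and 1 above, with a median of -0.08 (0.04 and -0.09), and Itgam was the highest of them.

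For integrin activation and adhesion complex genes, 7 of 23 were under all WT values and 6 above, with a median of 0.04 (-0.02 and 0.02, trend-removed -0.02). Tln1, the talin that links β tails to actin, was the highest and overlapped between groups (log2 fold change 0.31, SE 0.24, trend-removed -0.24). Lims1, which encodes the adaptor PINCH, was counted at 3760 to 4615 in WT and at 2956 in KO 2 and 2413 in KO 3 (-0.67, limma adjusted p = 0.0877, DESeq2 adjusted p = 0.013), and was at -0.02 with the length and GC trend removed. Rap1a, a small GTPase that activates integrins, was at 831 to 1555 in WT and 741 and 794 in KO (-0.62, limma adjusted p = 0.185), and turned to 0.19 with the trend removed. Ptk2, which encodes focal adhesion kinase, was at 162 to 254 in WT and 333 and 366 in KO (limma adjusted p = 0.153).

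For chemokine and lipid guidance genes, 6 of 16 were under all WT values and 2 above, with a median of -0.51 (-0.29 and -0.58). Ccr1 and Ccr2, receptors that guide myeloid cells, were at 440 to 738 and 201 to 281 in WT, at 180 and 67.8 in KO 2, and at 75.9 and 45.6 in KO 3 (log2 fold changes -2.21 and -2.06, limma adjusted p = 0.0815 for both, DESeq2 adjusted p = 0.000153 and 0.000109, trend-removed -1.43 and -1.32). Cxcr2, the receptor of neutrophil chemokines, was at 551 to 887 in WT, 364 in KO 2 and 169 in KO 3 (-1.54, DESeq2 adjusted p = 0.00428). C5ar1, a complement receptor, was the highest of the list at 1583 to 2134 in WT and 1423 and 775 in KO. These receptors moved with the neutrophil and granulocyte progenitor share given above, and its part was not tested.

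For CXCR4 signaling and desensitization genes, 11 of 26 were under all WT values and 2 above, with a median of -0.23 (-0.11 and -0.33, trend-removed -0.34). Gnai3, a Gαi chain that couples chemokine receptors, was at 4549 to 5203 in WT, 2552 in KO 2 and 1408 in KO 3 (-1.35, limma adjusted p = 0.0815, DESeq2 adjusted p = 0.00032, trend-removed -0.76). Gnai2, a Gαi chain of higher value in the same pathway, was at 19973 to 25702 in WT and at 23123 and 24340 in KO (0.03, SE 0.19, trend-removed -0.45). Rgs2, which speeds the shut-off of G proteins, was at 1265 to 1728 in WT and at 973 and 323 in KO (DESeq2 adjusted p = 0.031). Itch, the ubiquitin ligase that sends CXCR4 to lysosomes, was at 1631 to 1932 in WT and at 1006 and 734 in KO (-1.06, DESeq2 adjusted p = 0.000602, trend-removed -0.51).

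For selectins and selectin ligand synthesis, 7 of 19 genes were under all WT values and 2 above, with a median of -0.07 (-0.15 and 0.13, trend-removed -0.25). Cd24a, a P-selectin ligand and the highest of the list, was at 6683 to 11369 in WT and at 4779 and 2068 in KO (-1.54, DESeq2 adjusted p = 0.00231, trend-removed -1.02). St3gal6, a sialyltransferase of selectin ligands, was at 332 to 512 in WT and at 193 and 59.2 in KO (-1.89, DESeq2 adjusted p = 0.0109).

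Among 21 other HSC adhesion molecules the median was 0.46 (0.14 and 0.67), with 4 under all WT values and 2 above. The spread within WT was larger, since this median for WT 3 against the other WT libraries was -0.70. Cd164, a sialomucin of progenitor cells, was at 3005 to 4182 in WT and at 1804 and 1236 in KO (-1.30, DESeq2 adjusted p = 9.75e-05, trend-removed -0.70), and Prom1 at 1896 to 3132 in WT and at 1468 and 368 in KO. Icam4 was at 463 to 599 in WT and at 768 and 1209 in KO (0.83, DESeq2 adjusted p = 0.0261, trend-removed 0.32). Gpr56, an adhesion G protein-coupled receptor of HSCs, was the highest and overlapped, at 13138 to 24642 in WT, 22623 in KO 2 and 48942 in KO 3 (0.85, trend-removed 0.38).

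Of the 15 tetraspanins, which organise integrins in the membrane, 3 were under all WT values and 3 above, with a median of -0.07 (0.11 and -0.15, trend-removed 0.003). Cd53, a leukocyte tetraspanin, was at 2131 to 3483 in WT, 1078 in KO 2 and 486 in KO 3 (-1.94, DESeq2 adjusted p = 5.01e-05, trend-removed -1.20), and Tspan2 at 806 to 872 in WT and at 403 and 240 in KO (-1.42, trend-removed -0.88). Cd151, a partner of laminin-binding integrins, was at 73.8 to 123 in WT and at 241 and 193 in KO (limma adjusted p = 0.129). Cd63 was the highest of the list and overlapped (-0.21, trend-removed -0.81).

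Among hyaluronan and matrix partners of the receptors, 4 of 13 were under all WT values and 3 above, with a median of -0.06 (0.34 and 0.39, trend-removed -0.03). Msn, which encodes moesin and links CD44 to actin, was the highest, at 10980 to 11613 in WT, 7656 in KO 2 and 5680 in KO 3 (-0.77, limma adjusted p = 0.0816, DESeq2 adjusted p = 0.00413). Hmmr, another hyaluronan receptor that also serves in mitosis, was at 2171 to 2520 in WT and at 1372 and 680 in KO (-1.30, DESeq2 adjusted p = 0.00287, trend-removed -0.72). Spp1, which encodes osteopontin, was at 213 to 357 in WT and at 119 and 42.5 in KO, and Lamb2, a laminin chain, at 31.7 to 117 in WT and at 223 and 276 in KO (1.89, trend-removed 1.22).

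The list for protease release of HSCs from the marrow also holds the inhibitor genes Timp1, Timp2, Timp3 and Reck and the receptor gene Plaur. Of its 14 genes tested, 4 were under all WT values and none above, with a median of -0.39 (-0.21 and -0.49). Adam10, which sheds CD44, was at 4146 to 4498 in WT and at 2375 and 2615 in KO (-0.80, DESeq2 adjusted p = 0.00032), and at -0.25 with the length and GC trend removed. Mmp9 was at 4021 to 7460 in WT and at 2739 and 2977 in KO (-1.08, DESeq2 adjusted p = 0.00336), and Adam8 at 376 to 782 in WT and at 253 and 138 in KO. Elane, which encodes neutrophil elastase, was the highest at 71505 to 100807 in WT and at 107246 and 71897 in KO, and overlapped (0.02, trend-removed -0.49).

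**Figure D4:**
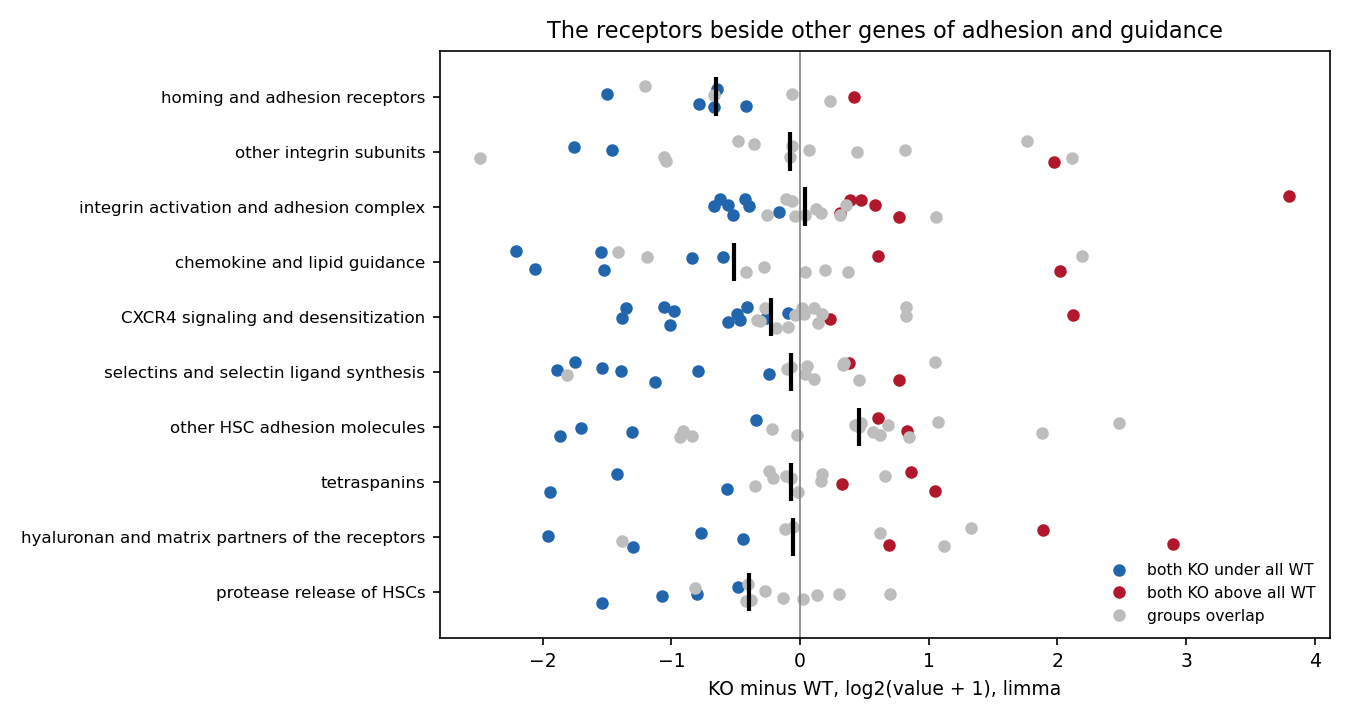
Log2 fold changes (KO minus WT, limma) of the tested genes of each list, with genes under all WT values in blue, above all WT values in red and overlapping in grey, and the list median as a black bar. The receptors' median of -0.66 is the lowest of the 10 lists shown, and chemokine and lipid guidance follows at -0.51. With the length and GC trend removed, the receptors' median is -0.27. Chemokine and lipid guidance (-0.59), protease release of HSCs (-0.43) and CXCR4 signaling and desensitization (-0.34) then lie lower.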

How the data were processed

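Per the labels, sorted cells were frozen in TRIzol, and libraries came from a SMART-Seq v4 low-input kit. The deposited values were a normalized signal per gene, which the authors made by dividing read counts by a size factor per library, and the submitters' processing notes name STAR, featureCounts, DESeq2 and mm10, without versions. A second deposited table, with the authors' fold changes and p-values, was not used. Each library's values were whole multiples of a step of 0.833 to 1.52, so reads were recovered (100% whole within 0.01), with 12539599 to 22779536 reads per library. Reads carry no molecular identifiers and are not independent molecules.

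Genes that reached a value of 10 in 2 or more libraries were tested with limma (version 3.58.1, R 4.3.3) on log2(value + 1), KO (n = 2) against WT (n = 3), with no covariate and Benjamini-Hochberg adjustment over all genes tested, and were called at an adjusted p under 0.05. Fold changes on this scale understate the changes of low genes. edgeR's quasi-likelihood test (4.0.16; 2 genes called) and DESeq2 (1.42.0) were run on recovered reads, and other alternatives changed the pseudocount, filter, scaling, variance model, replicate block, library set and a linear trend on transcript length and GC content (GENCODE M21, 13527 genes matched). Scripts were tested on simulated data. The members and gene lists were chosen with earlier results of these data known. Named from each list were up to 3 genes with the largest fold changes among those with a mean of at least 100 and groups that did not overlap, and the gene of highest value. A gene that this rule also names is not reported here. Grk2 and Grk3 were found under older symbols, and Icam3 and Ly6g were not used here.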

Additional observations from a re-analysis of the deposited data

How the results depend on the processing

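Over 18 alternatives, 230 of 264 recomputed values kept direction and side of the threshold or moved little. None of the 10 members was called in any of them except DESeq2 (2 members) and the fit without KO 2 (5 members), so that leaving out 1 library gave 0 to 5. The members' median stayed below 0 throughout, at -0.27 with the length and GC trend removed and -0.98 to -0.34 over the fits that left out 1 library. Syncrip kept its direction. It passed the threshold in DESeq2 (adjusted p = 5.54e-20) and missed it with all genes above 0 (-2.43, adjusted p = 0.0503), limma-voom (-2.46), the trend removed (-1.53) and each WT library left out, in which fits, with each KO library left out too, it ran from -2.55 to -2.32. With the trend removed, 3 members were under all WT values and 0 above, where 18.6% and 17.2% of all genes were. Leaving out 1 library gave 5 to 7 under and 1 to 2 above, where 26.1% to 38.3% and 26.4% to 40.0% of all genes were. The α to β1 difference, 0.31, was 0.19 with mean coding transcript lengths and reversed to -0.011 with the trend removed, an alternative chosen after seeing the data. Directions reversed for Itga5 with the trend removed (-0.13), for Selplg without KO 3 (-0.021 to 0.48 over single libraries left out) and for Itga6 without WT 1, WT 2 or KO 2 (-0.39 to 0.26). The causes were not tested.

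WT and KO share only the replicate numbers 2 and 3, and the labels give these no meaning. Deviations from the group mean correlated at -0.06 and -0.18 between same-numbered libraries over 13661 genes. With 2 KO libraries their deviations mirror each other, so these correlations are not separate checks and cannot decide whether the numbers mark pairs. With the replicate number as a block, none of the 10 members was called, and 6 genes were called in all beside 1 without it. The members' median was -0.76 and Itga6 turned to 0.014. WT 1 has no KO library of its number, so these fold changes are those of the fit without WT 1. The block fit had 1 residual degree of freedom, beside 3 without the block. With block and trend removal together the median was -0.37, Syncrip was at -1.48 (adjusted p = 0.228), Itga5 at -0.22 and Itga6 at 0.080. KO 3 was the shallowest library and the farther from WT by the members' median, and having 2 KO libraries limits the precision of each comparison.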

Other observations

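Of 11 HSC gate and long-term HSC genes, Ptprc and Cd48 were lower in both KO libraries than in all WT libraries. The other 9 overlapped, and 23.2% of all genes tested were under all WT values. The median log2 fold change of the 11 was 0.46, with 3 below 0, and was -0.17 for KO 2 alone and 1.03 for KO 3 alone. Ptprc, which encodes CD45, was counted at 4635, 3735 and 4550 in WT 1, WT 2 and WT 3, and at 2010 in KO 2 and 1271 in KO 3, and Cd48, whose protein was gated out, at 601 to 768 in WT, 459 in KO 2 and 191 in KO 3. The megakaryocyte and platelet markers, led by Itga2b, had 5 of 10 genes above all WT values and 1, which was not tested, under. Over all genes tested, 23.9% were above and 23.2% under. These markers summed to 5917 to 9342 in WT, 9304 in KO 2 and 21304 in KO 3. Erythroid markers, led by Car1, summed to 26523 to 40357 in WT, 29939 in KO 2 and 19924 in KO 3, and lymphocyte markers, led by Cd79b, to 500 to 663 in WT and 545 and 565 in KO. Fabp4 was the highest adipocyte gene, at 7687 in KO 2 and 1.52 to 128 elsewhere.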
